A study of Homo sapiens with 18 samples.

Results

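The aryl hydrocarbon receptor genes and the CYP1 genes were followed in WiDr and HT29, lines grown from human colorectal tumours, across 6 groups of arrays. The set held 7 genes, namely the receptor AHR, its partner ARNT, the repressor AHRR, the feedback enzyme TIPARP and the cytochrome P450 genes CYP1A1, CYP1A2 and CYP1B1. Every probe set tied to only 1 of these symbols was taken, which gave 21 of the 49293 probe sets on the array that are not controls. ARNT and CYP1B1 had 5 probe sets each, AHR had 3, and AHRR, TIPARP, CYP1A1 and CYP1A2 had 2 each. The set was chosen because CYP1A1 and CYP1B1 were already known to stand among the largest rises with treatment in these arrays. The values behind that choice, CYP1A1 in all treatments and CYP1B1 with AZ628 in WiDr, are therefore given as a description with no test.

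The 6 groups held 3 arrays each. WiDr cells were sampled with vehicle, with AZ628, a RAF kinase inhibitor that acts upstream of MEK and ERK, after transduction with control shRNA (a short hairpin RNA), and after transduction with shRNA to IKKα, a kinase of NF-κB signalling encoded by CHUK. HT29 cells were sampled with vehicle and with AZ628. Both are established lines with mutant BRAF, and WiDr is held to descend from HT29, so they do not stand for separate tumours. The labels gave neither dose nor time of AZ628, did not name the vehicle, and left unsaid whether replicate arrays are separate cultures, so p-values reflect the spread of these arrays, which may be technical. The titles and 1 other label name the last WiDr group for IKKα shRNA, while its description also carries the word control, and the titles were followed. The vehicle groups carried no shRNA, and the shRNA groups have no label for a vehicle.

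AHR is a transcription factor of the bHLH-PAS family that waits in the cytoplasm with HSP90 chaperones until it binds a ligand, such as a polycyclic hydrocarbon, a dioxin or a tryptophan metabolite. It then moves to the nucleus, pairs with ARNT and binds DNA elements with the core GCGTG, which drives CYP1A1, CYP1A2 and CYP1B1, whose enzymes oxidise many of these ligands. The same pair drives AHRR, which competes for ARNT, and TIPARP, an ADP-ribosyltransferase that promotes loss of the receptor, and in gut epithelium the pathway is known for sensing compounds from diet and microbes.

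Promoters are shown of the 3 target genes that differed most between treatments and for which a sequence was at hand. Each of these promoters holds a match to the core GCGTG, which is not by itself evidence of binding. They are the 250 bases before the annotated start, from RefSeq on GRCh38.p14, read 5′ to 3′ on the strand of the gene, and capitals mark GCGTG or, for the opposite strand, CACGC. The CYP1A1 promoter is chr15:74725529-74725778 on the minus strand, the AHRR promoter chr5:321464-321713 on the plus strand (the first of 2 annotated starts) and the TIPARP promoter chr3:156674340-156674589 on the plus strand (the first of 3 annotated starts).
CYP1A1: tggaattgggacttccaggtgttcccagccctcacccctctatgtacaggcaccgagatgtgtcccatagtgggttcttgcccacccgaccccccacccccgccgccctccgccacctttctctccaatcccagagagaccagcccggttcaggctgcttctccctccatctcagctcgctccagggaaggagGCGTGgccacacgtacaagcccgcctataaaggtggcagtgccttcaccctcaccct
AHRR: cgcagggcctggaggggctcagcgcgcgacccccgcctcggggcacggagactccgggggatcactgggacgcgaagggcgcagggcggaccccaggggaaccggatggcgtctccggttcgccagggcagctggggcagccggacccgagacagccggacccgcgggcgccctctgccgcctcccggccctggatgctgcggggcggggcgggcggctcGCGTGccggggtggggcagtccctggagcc
TIPARP: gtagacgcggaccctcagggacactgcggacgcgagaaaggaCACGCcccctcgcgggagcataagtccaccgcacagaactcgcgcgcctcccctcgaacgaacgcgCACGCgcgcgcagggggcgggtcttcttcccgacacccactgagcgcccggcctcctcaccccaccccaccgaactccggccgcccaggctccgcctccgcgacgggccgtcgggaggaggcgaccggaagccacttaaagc
In CYP1A1 the match begins 57 bases before the start and in AHRR 30 bases before it. In TIPARP the matches on the opposite strand begin 208 and 142 bases before the start. RefSeq windows reaching from 250 bases before to 50 bases after a start were at hand for 6 of the 7 genes, in 9 windows, all but CYP1B1. GCGTG on either strand was in 36.5% of all 35116 windows of that length, so its presence is common. Binding of the receptor pair at these matches was not tested, and sequence further upstream was not searched. The longer form TNGCGTG, where N is any base and which contains the shorter core, was in 5.51% of all windows and, among the 9, in the first AHRR window, beginning 32 bases before the start. The second AHRR window held 2 cores and the AHR window held 1, which begins at base 38 after the start, while the ARNT and CYP1A2 windows and the other TIPARP windows held none.

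All values are log2 signals, in which 1 unit is 2-fold, made by the authors with RMA. Array medians lay between 5.98 and 6.08, and signals near or below these compress true changes. Arrays of the same group correlated at Pearson r 0.9963 to 0.9981 over all probe sets, and arrays of different groups at 0.958 to 0.9958. CHUK, the target of the shRNA, read 7.68, 7.23 and 7.65 with IKKα shRNA and at least 8.90 on every other array, and changed by -2.12 against control shRNA (SE 0.13, adjusted p = 4.19e-10, 1 probe set). With AZ628, CHUK changed by -0.43 (WiDr) and -0.37 (HT29). Of 8 markers of colorectal epithelium, 6 were above the array median on all 18 arrays, while CDX1 was below it on all and CDX2 was above it on 17. Of 4 fibroblast, 4 blood, 3 endothelial and 4 hepatocyte markers, 3, 3, 1 and 3 were below the median on all 18 arrays. TTR of the hepatocyte list was above it on all, CD79A (blood) on 17, VWF (endothelium) on 14, LUM (fibroblast) on 5 and PECAM1 (endothelium) on 1. In RNA from a whole culture, more RNA per cell and more cells with the RNA cannot be told apart.

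Group means were compared with limma over all 49293 probe sets, and a probe set passed at a Benjamini-Hochberg adjusted p under 0.05. With AZ628 in WiDr, 15 of the 21 probe sets passed, 12 higher and 3 lower, where 39.3% of all probe sets passed (20.2% higher, 19% lower). With AZ628 in HT29, 16 passed, 13 higher and 3 lower, where 38.3% of all did (19.6% and 18.7%). With IKKα shRNA against control shRNA, 13 passed, 11 higher and 2 lower, where 29.7% of all did (14.2% and 15.5%). The median change over the 21 was 0.95, 0.67 and 0.52 in these comparisons, and over all probe sets it was -0.004, 0.0033 and 0.0257. Because the choice of genes rested on these comparisons, nothing is read from the counts or the medians. By gene, 6 of the 7 had at least 1 passing probe set with AZ628 in WiDr (49.8% of all 18132 genes), 6 in HT29 (49.1%) and 5 with IKKα shRNA (41.4%). The compared groups did not overlap on 47.3% of all probe sets with AZ628 in WiDr, 45.5% in HT29 and 42.1% with IKKα shRNA. HT29 and WiDr with AZ628 did not overlap on 39.4%. A lack of overlap between compared groups was thus common. The share of probe sets on which several groups separate at once was not counted.

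**Figure D1:**
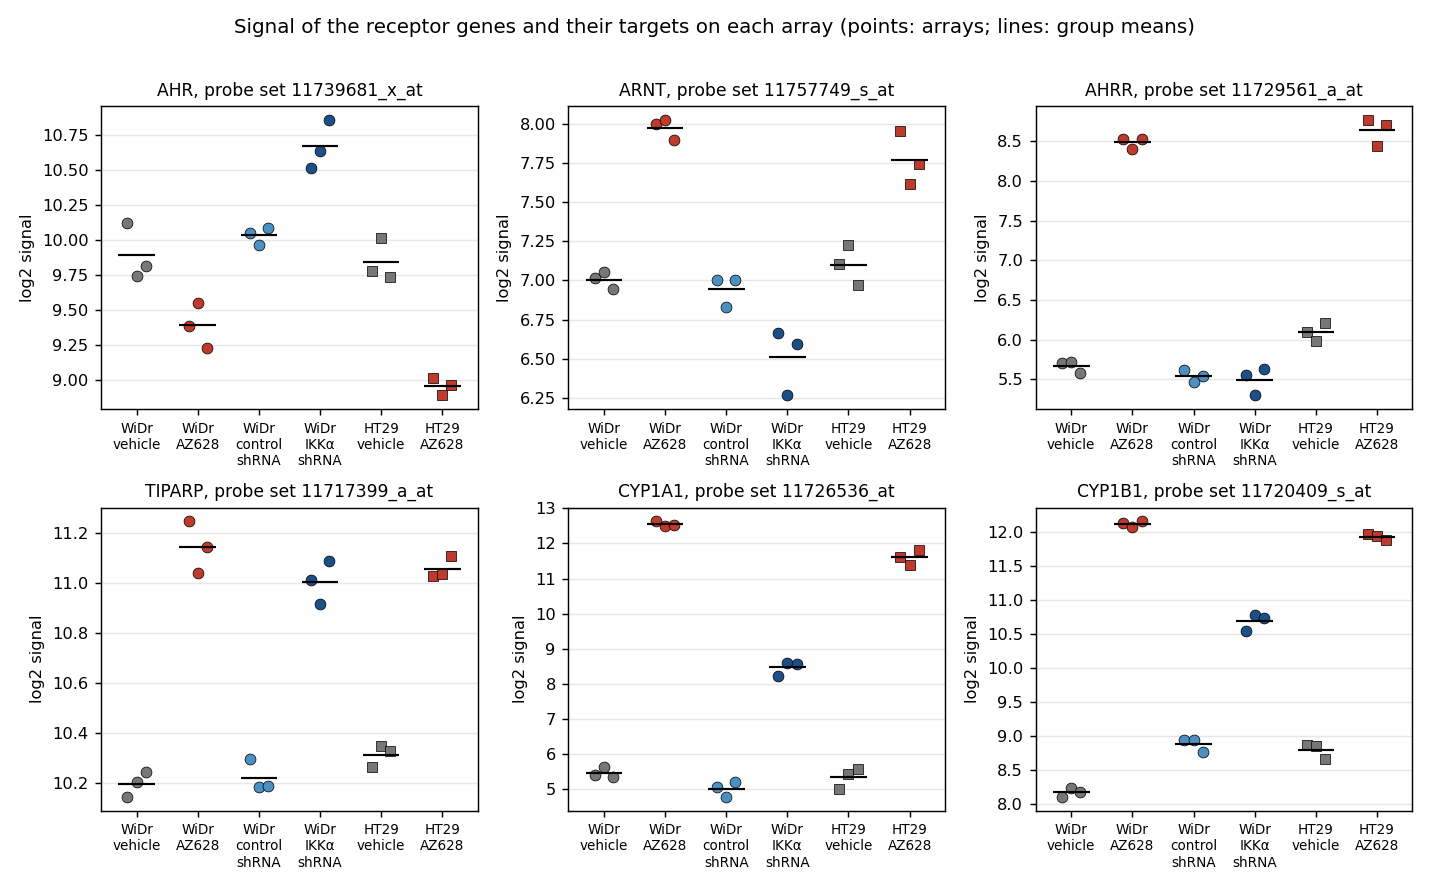
Log2 signal on each of the 18 arrays (points; circles WiDr, squares HT29) with the mean of each group of 3 (lines), for the brightest probe set of 6 genes. The y axes differ between panels and do not start at 0. AHR is lowest with AZ628 and highest with IKKα shRNA, ARNT is the reverse, AHRR is high only in the AZ628 groups, and TIPARP, CYP1A1 and CYP1B1 are high with AZ628 and with IKKα shRNA.

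The receptor itself moved in opposite directions with the treatments: AHR fell with AZ628 in both lines and rose with IKKα shRNA, on all 3 of its probe sets. On the brightest, 11739681_x_at, the WiDr arrays read 10.12, 9.74 and 9.81 with vehicle and 9.38, 9.55 and 9.23 with AZ628. In HT29 they read 9.78, 10.02 and 9.73 with vehicle and 9.01, 8.89 and 8.96 with AZ628. The arrays with control shRNA read 10.05, 9.97 and 10.09, and those with IKKα shRNA 10.52, 10.64 and 10.86. Every AZ628 array lay below every other array, and every IKKα shRNA array lay above every other. With AZ628 the change was -0.50 (WiDr, SE 0.11, adjusted p = 0.0011162) and -0.89 (HT29, adjusted p = 3.16e-06), and with IKKα shRNA it was 0.64 (adjusted p = 0.0002032).

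On the other AHR probe sets IKKα shRNA was again highest and the AZ628 groups lowest, and the order of the 3 control groups, which overlapped, was not the same. On 11751921_s_at the vehicle arrays of WiDr read 9.89, 9.57 and 9.71 and the AZ628 arrays 9.02, 9.02 and 8.84. The HT29 arrays read 9.93, 10.11 and 9.80 with vehicle and 8.61, 8.51 and 8.78 with AZ628. The shRNA arrays read 9.86, 9.86 and 10.07 for the control and 10.43, 10.52 and 10.76 for IKKα. This probe set gave the largest AHR changes with AZ628, -0.76 in WiDr (adjusted p = 1.42e-05) and -1.31 in HT29 (adjusted p = 1.82e-08), and rose by 0.64 with IKKα shRNA (adjusted p = 0.0001693). The dim probe set 11739680_a_at read 5.19 to 6.62 over the 18 arrays and changed by -0.38, -0.65 and 0.52 (adjusted p = 0.0083519, 8.36e-05 and 0.0011602). No AHR probe set passed for control shRNA against vehicle (0.05 to 0.21) or between the lines with vehicle (-0.05 to 0.22).

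ARNT, the partner without which AHR does not bind its elements, rose with AZ628 and fell with IKKα shRNA on its brighter probe sets. These signs were opposite to those of AHR. On 11757749_s_at the WiDr arrays read 7.02, 7.05 and 6.94 with vehicle and 8.0, 8.03 and 7.90 with AZ628. HT29 read 7.10, 7.23 and 6.97 with vehicle and 7.96, 7.62 and 7.74 with AZ628. The arrays with control shRNA read 7.00, 6.83 and 7.00 and those with IKKα shRNA 6.67, 6.26 and 6.60. The AZ628 arrays of both lines lay above all others and the IKKα shRNA arrays below all others. The change was 0.97 in WiDr (SE 0.10, adjusted p = 4.03e-07), 0.67 in HT29 (adjusted p = 3.69e-05) and -0.44 with IKKα shRNA (adjusted p = 0.0033736).

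A second ARNT probe set, 11741380_s_at, gave larger changes. It read 6.29, 6.07 and 6.02 with vehicle and 7.64, 7.68 and 7.59 with AZ628 in WiDr. In HT29 it read 6.55, 6.14 and 6.43, and then 7.71, 7.64 and 7.56. With control shRNA it read 6.34, 6.29 and 6.25, and with IKKα shRNA 6.02, 5.67 and 5.59. It rose by 1.51 in WiDr (adjusted p = 2.75e-09) and by 1.26 in HT29 (adjusted p = 3.56e-08), and fell by 0.53 with IKKα shRNA (adjusted p = 0.0010496). The IKKα shRNA arrays reached the level of the vehicle arrays here (6.02 in each), and against vehicle the change was -0.37 (adjusted p = 0.016091), which did not pass without vehicle replicate 1 (adjusted p = 0.081737), without IKKα shRNA replicate 2 or 3 (0.067178 and 0.091137) or in a fit of the compared groups alone (0.05312).

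The remaining ARNT probe sets, 11741381_a_at, 11742052_a_at and 11752225_a_at, lay between 4.95 and 5.97 on every array, below every array's median. They gave 0.19, -0.03 and 0.53 with AZ628 in WiDr, of which only the last passed (adjusted p = 0.0012182). In HT29 they gave 0.22, 0.00 and 0.33, of which the first and the last passed (adjusted p = 0.032764 and 0.030496). The call of 11741381_a_at in HT29 was lost without AZ628 replicate 2 or 3 and without vehicle replicate 2 or 3 (adjusted p up to 0.16193), and that of 11752225_a_at without AZ628 replicate 1 or 2 and without vehicle replicate 1 or 2 (up to 0.14929). None of the dim ARNT probe sets passed with IKKα shRNA. The fall with IKKα shRNA was thus seen on the bright ARNT sets only.

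AHRR, the repressor that takes up ARNT and is itself a target of the receptor, rose with AZ628 and did not pass with IKKα shRNA. On 11729561_a_at the WiDr arrays read 5.70, 5.72 and 5.58 with vehicle and 8.54, 8.41 and 8.53 with AZ628. The HT29 arrays read 6.10, 5.98 and 6.22 with vehicle and 8.77, 8.45 and 8.71 with AZ628. The control shRNA arrays read 5.62, 5.46 and 5.55 and the IKKα shRNA arrays 5.55, 5.30 and 5.62. The 6 AZ628 arrays stood over 2 units above all 12 others, and the shRNA groups overlapped. In WiDr it rose by 2.83 (SE 0.10, 7.09-fold, adjusted p = 1.23e-13), and HT29 showed a rise of 2.54 (5.83-fold, adjusted p = 7.23e-13).

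With IKKα shRNA this AHRR probe set changed by -0.05 (95% interval -0.25 to 0.15, adjusted p = 0.75817), and its IKKα shRNA effect minus its effect of AZ628 in WiDr, which share no arrays, was -2.88 (SE 0.14, adjusted p = 1.50e-11). Both shRNA groups lay below the array median on this probe set (arrays up to 5.62, medians 5.99 and 6.01), where changes are compressed. A small rise with IKKα shRNA could thus be missed. HT29 lay above WiDr with vehicle by 0.43 (adjusted p = 0.0021544), and with AZ628 the lines did not pass (0.15, adjusted p = 0.29093). The second AHRR probe set, 11754841_a_at, lay between 5.60 and 6.27 on all arrays and did not pass with AZ628 in WiDr (0.08, adjusted p = 0.54546), in HT29 (-0.01, adjusted p = 0.94843) or with IKKα shRNA (0.20, adjusted p = 0.10034). Control shRNA against vehicle gave -0.42 on it (adjusted p = 0.0041727). AHRR thus rests on 1 of its 2 probe sets.

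TIPARP, which the receptor induces and which in turn limits the receptor, rose in all 3 treatments and on both probe sets. On 11717399_a_at the WiDr arrays read 10.14, 10.20 and 10.24 with vehicle and 11.25, 11.04 and 11.14 with AZ628. In HT29 they read 10.26, 10.35 and 10.33 and then 11.03, 11.04 and 11.11. With control shRNA they read 10.29, 10.18 and 10.18 and with IKKα shRNA 11.01, 10.92 and 11.09. All 9 treated arrays lay above all 9 control arrays, and the 3 treated groups overlapped each other. The rise was 0.95 with AZ628 in WiDr (SE 0.07, adjusted p = 1.61e-09), 0.75 in HT29 (adjusted p = 4.79e-08) and 0.79 with IKKα shRNA (adjusted p = 4.91e-08).

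On the dimmer TIPARP probe set, 11755700_a_at, the WiDr arrays read 5.74, 5.78 and 6.12 with vehicle and 7.20, 6.88 and 7.14 with AZ628. The HT29 arrays read 5.82, 5.66 and 5.84 and then 6.55, 6.60 and 6.69. The shRNA arrays read 6.19, 5.92 and 5.91 for the control and 6.98, 7.01 and 7.04 for IKKα. The rises were 1.19, 0.84 and 1.0 (adjusted p = 3.30e-08, 3.28e-06 and 7.28e-07), and the treated groups were again above every control array. The IKKα shRNA effect minus the AZ628 effect in WiDr was -0.16 (95% interval -0.36 to 0.04, adjusted p = 0.20766) on the brighter set and -0.19 (-0.51 to 0.12, adjusted p = 0.36403) on the dimmer, so the data allow a difference anywhere between these bounds.

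CYP1A1, the P450 by which receptor activity is usually read, had the largest rise of all 49293 probe sets with AZ628 in both lines, which is why it is described here without a test. On 11726536_at the WiDr arrays read 5.41, 5.64 and 5.36 with vehicle and 12.63, 12.49 and 12.52 with AZ628. The HT29 arrays read 5.01, 5.43 and 5.59 with vehicle and 11.62, 11.38 and 11.82 with AZ628. With control shRNA they read 5.08, 4.78 and 5.20 and with IKKα shRNA 8.22, 8.60 and 8.58. The order was WiDr with AZ628, HT29 with AZ628 and then IKKα shRNA, with no overlap between them. Of all probe sets, 39.4% had no overlap between the lines with AZ628. The 3 control groups lay below the array median, where HT29 with vehicle overlapped both of the others. Against their controls the differences were 7.07 (135-fold), 6.26 (76.9-fold) and 3.45 (10.9-fold).

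The second CYP1A1 probe set, 11754154_a_at, read 5.07, 5.45 and 5.47 with vehicle and 10.28, 10.29 and 10.31 with AZ628 in WiDr. It read 5.63, 5.51 and 5.50 and then 9.03, 9.17 and 9.15 in HT29. It read 5.05, 5.18 and 5.06 with control shRNA and 6.59, 6.56 and 6.30 with IKKα shRNA. The order of the treated groups was the same, at smaller differences of 4.97, 3.57 and 1.39. It ranked as number 7, 20 and 323 from the top of all probe sets in these comparisons, while 11726536_at ranked as number 1, 1 and 22. The control arrays lay below the array median, where RMA compresses changes, so the folds may be understated.

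CYP1A1 was chosen for other comparisons, but the control arrays take part in those, so tests between control groups are not independent of the choice. The gene was lower with control shRNA than with vehicle on 11726536_at (-0.45, adjusted p = 0.048495), and on 11754154_a_at the change was -0.23 (adjusted p = 0.10783). That single call was lost without each vehicle replicate, without control shRNA replicate 1 or 2 (adjusted p up to 0.18894) and after a further quantile normalization (adjusted p = 0.09856). Between HT29 and WiDr with vehicle neither set passed (-0.13, adjusted p = 0.63302, and 0.22, adjusted p = 0.11535).

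CYP1A2, the sister gene that is mainly a liver enzyme, did not pass in any of the 9 comparisons on either probe set. The probe set 11732107_a_at lay between 4.21 and 4.78 on all 18 arrays, below the array median. The probe set 11732108_x_at lay between 8.07 and 9.01, and group means ran from 8.20 ± 0.11 with control shRNA to 8.88 ± 0.13 (SD, n = 3) in HT29 with AZ628. With AZ628 it changed by 0.26 in WiDr (adjusted p = 0.096029) and 0.30 in HT29 (adjusted p = 0.058546), and with IKKα shRNA by 0.07 (adjusted p = 0.73063). The change in HT29 passed in some alternatives, at an adjusted p of 0.046863 without the dimmest 25% of probe sets and 0.036629 with an intensity trend in the prior, and in WiDr it passed without vehicle replicate 2 (0.38, adjusted p = 0.019045). CYP1A1 and CYP1A2 lie next to each other on chromosome 15, and the difference of at least 4.97 in WiDr on the first was not seen on the second.

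**Figure D2:**
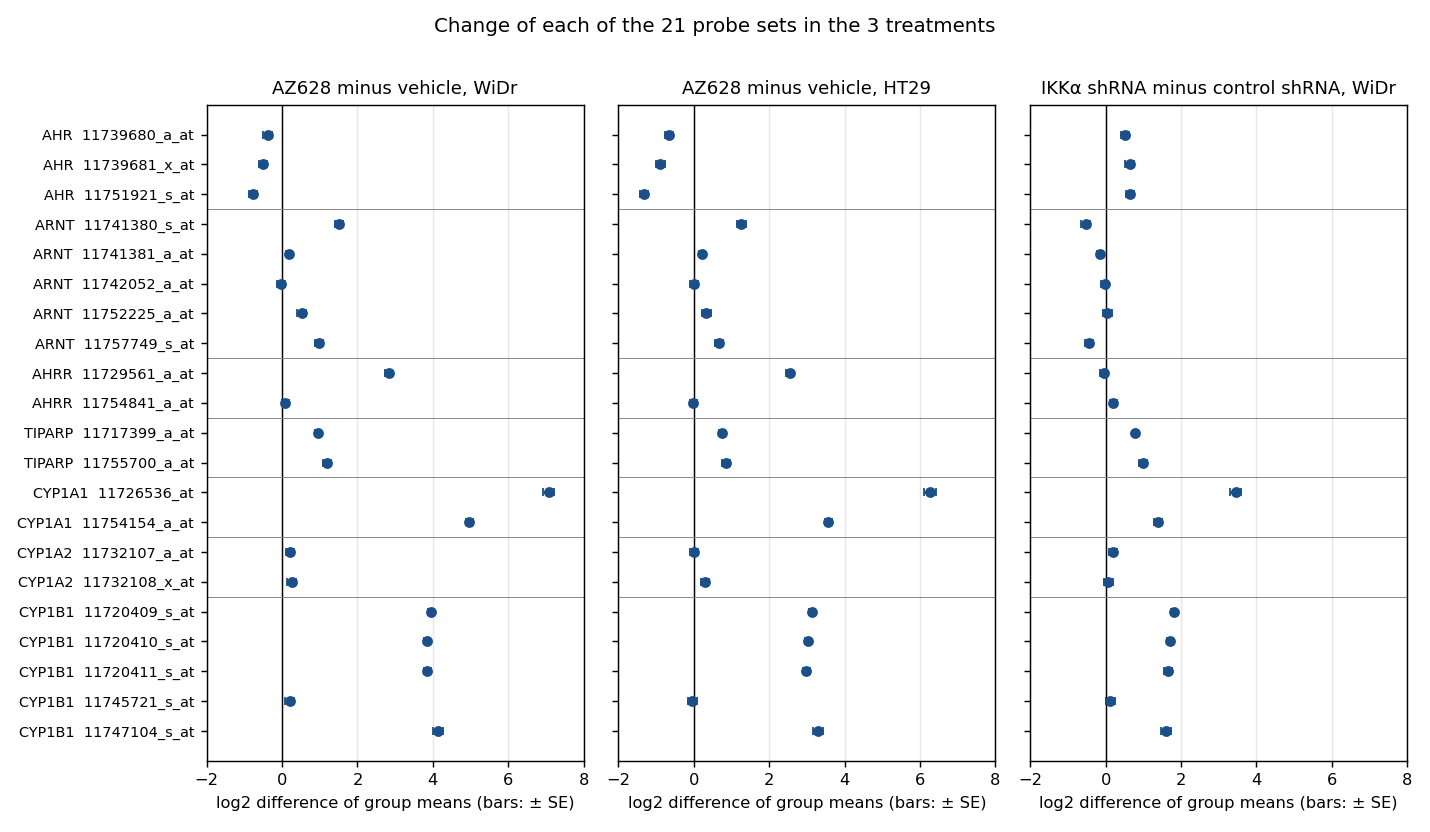
Change of each of the 21 probe sets (points, log2 difference of group means, bars ± SE of the limma fit) with AZ628 in WiDr, AZ628 in HT29 and IKKα shRNA in WiDr. Both CYP1A1 probe sets and 4 of 5 CYP1B1 probe sets are far to the right in the AZ628 panels, the AHR probe sets change side between AZ628 and IKKα shRNA, and CYP1A2 stays near 0.

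CYP1B1, which oxidises oestradiol and hydrocarbons outside the liver, was higher in every treatment on 4 of its 5 probe sets. On 11720409_s_at the WiDr arrays read 8.11, 8.25 and 8.18 with vehicle and 12.14, 12.08 and 12.16 with AZ628, a difference of 3.95 (15.4-fold) that is given with no test. In HT29 they read 8.87, 8.85 and 8.67 with vehicle and 11.97, 11.94 and 11.88 with AZ628, a rise of 3.13 (SE 0.08, 8.78-fold, adjusted p = 5.20e-15). With control shRNA they read 8.94, 8.94 and 8.77 and with IKKα shRNA 10.54, 10.78 and 10.74, a rise of 1.80 (3.49-fold, adjusted p = 6.22e-12). The treated groups had the order of CYP1A1, WiDr with AZ628, then HT29 with AZ628, then IKKα shRNA. No treated array overlapped with another group, and between the lines with AZ628 39.4% of all probe sets did not overlap.

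The probe sets 11720410_s_at, 11720411_s_at and 11747104_s_at gave the same order. Their differences with AZ628 in WiDr were 3.83, 3.86 and 4.13. In HT29 they rose by 3.02, 2.98 and 3.28 (adjusted p = 8.26e-15, 9.27e-14 and 1.73e-12). With IKKα shRNA they rose by 1.70, 1.65 and 1.59 (adjusted p = 1.54e-11, 3.34e-10 and 4.23e-08). The fifth probe set, 11745721_s_at, lay between 5.29 and 6.03 on all arrays. It gave 0.20 in WiDr, -0.04 in HT29 (adjusted p = 0.84751) and 0.12 with IKKα shRNA (adjusted p = 0.51312). The names of all 5 end in _s_at, which marks probes shared by several transcripts, so probe sets of 1 gene may read the same RNA and are not separate evidence.

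CYP1B1 differed between the control groups on 4 of its 5 probe sets. The WiDr vehicle arrays also enter the AZ628 difference by which CYP1B1 was chosen, so these tests are not independent of the choice. Control shRNA was above vehicle in WiDr by 0.71, 0.82, 0.99 and 1.09 on the 4 responsive probe sets (adjusted p = 1.03e-05, 2.26e-06, 2.95e-06 and 3.86e-05). HT29 was above WiDr with vehicle by 0.62, 0.60, 0.57 and 0.61 (adjusted p = 6.44e-06 for the first and 0.0018892 for the last). The order of the controls was control shRNA, HT29 vehicle and WiDr vehicle on all 4, with an overlap of control shRNA and HT29 vehicle on 11720409_s_at. Measured from vehicle instead of control shRNA, the IKKα shRNA arrays were higher by 2.51, 2.53, 2.64 and 2.68. Transduction and any other difference between these cultures cannot be told apart.

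For the control comparisons over all 21, control shRNA against vehicle had 6 passing probe sets, 4 higher and 2 lower, where 16.9% of all probe sets passed (9.92% higher, 6.93% lower). HT29 against WiDr with vehicle had 6, all higher, where 26.5% of all passed (14.1% higher, 12.4% lower). The 6 of the line comparison were the 4 CYP1B1 sets, 11729561_a_at of AHRR and 11741381_a_at of ARNT (0.23, adjusted p = 0.032645), and the last was lost without vehicle replicate 1 or 2 of either line (adjusted p up to 0.16679). By gene, 3 of 7 had a passing probe set for control shRNA (29.1% of all genes) and 3 for the lines (37.2%). Without CYP1A1 and CYP1B1, 1 of 14 probe sets passed for control shRNA and 2 of 14 for the lines.

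The size of the AZ628 response was compared between the lines. The change in HT29 minus that in WiDr was -0.81 (SE 0.21) and -1.40 (SE 0.14) on the 2 CYP1A1 probe sets and -0.81, -0.81, -0.87 and -0.84 on the responsive CYP1B1 sets, values that are given with no test. For CYP1B1 the higher vehicle level of HT29 enters this difference, since with AZ628 present HT29 minus WiDr was -0.19 to -0.30. For AHR the fall was larger in HT29 on 11751921_s_at, at a difference of -0.55 (SE 0.15, adjusted p = 0.044878), and on 11739680_a_at and 11739681_x_at the differences were -0.27 (adjusted p = 0.42344) and -0.38 (adjusted p = 0.20864). The call did not hold with the replicate number as a block (adjusted p = 0.065552) or without WiDr AZ628 replicate 1 or 2, WiDr vehicle replicate 2 or 3, HT29 AZ628 replicate 1 or 2 or HT29 vehicle replicate 1 or 2, each left out alone (adjusted p up to 0.11964). For AHRR (-0.28, adjusted p = 0.31358) and both TIPARP sets (-0.20 and -0.35) no line difference passed. Outside CYP1A1 and CYP1B1, the AHR set was the 1 of 14 probe sets that passed, where 5.51% of all probe sets did (2.43% higher, 3.08% lower), and AHR the 1 of 5 genes, where 9.5% of all genes had a passing probe set.

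With AZ628 present in both lines, 4 of the 14 probe sets outside CYP1A1 and CYP1B1 differed between them, 1 higher and 3 lower in HT29, where 28.7% of all did (14.6% higher, 14.1% lower). They belong to 3 of 5 genes, where 39.6% of all genes had a passing probe set. AHR was lower in HT29 on 11739681_x_at (-0.43, adjusted p = 0.0057534), and TIPARP was lower on 11755700_a_at (-0.46, adjusted p = 0.0025509) and not on 11717399_a_at (-0.09). The AHR set 11751921_s_at passed at -0.33 (adjusted p = 0.030423), which was lost without WiDr AZ628 replicate 1 or 2 and without HT29 AZ628 replicate 1 or 2 (adjusted p up to 0.13218). ARNT was higher in HT29 on the dim 11741381_a_at (0.26, adjusted p = 0.016277), which was lost without replicate 2 of either AZ628 group (0.07418 and 0.063645).

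**Figure D3:**
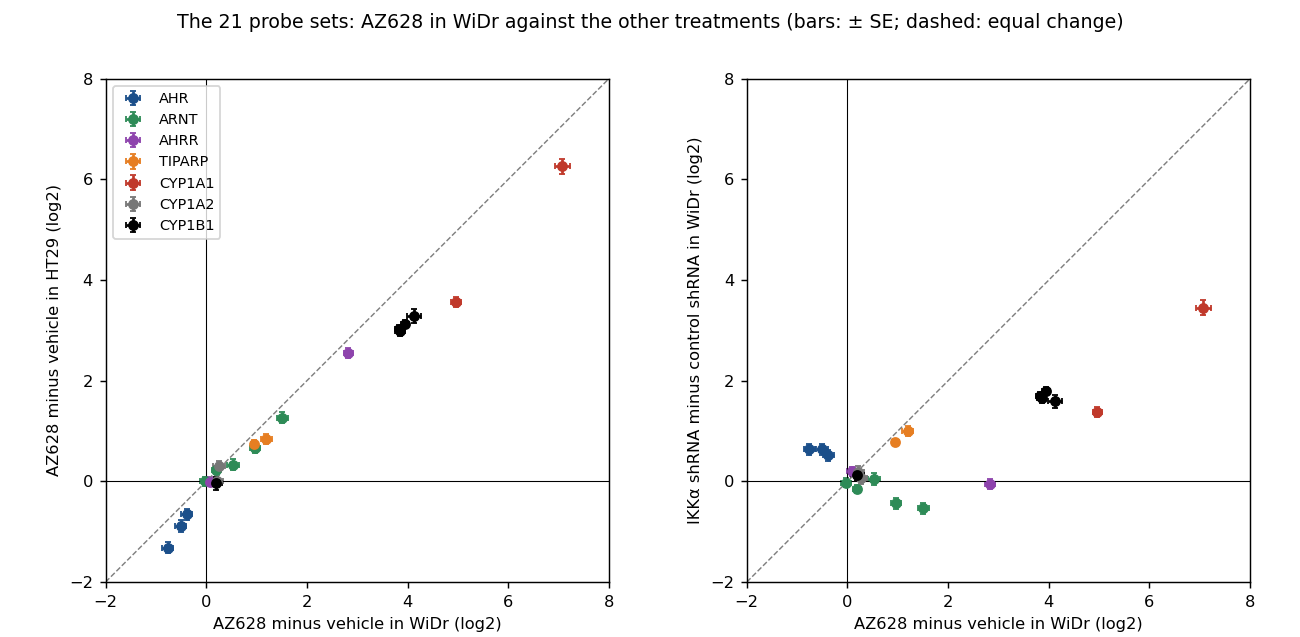
Change of each of the 21 probe sets with AZ628 in WiDr (x axis, log2) against the change with AZ628 in HT29 (left) and with IKKα shRNA in WiDr (right); bars are ± SE and the dashed line marks equal change. In the left panel the points run close to the line, with CYP1A1 and CYP1B1 below it. In the right panel TIPARP lies near the line, AHRR at 0, and AHR and the brighter ARNT sets in the quadrants of opposite sign.

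The effects of IKKα shRNA and of AZ628 in WiDr come from separate arrays and could be set against each other. In that comparison 8 of the 14 probe sets outside CYP1A1 and CYP1B1 passed, 3 higher and 5 lower with the shRNA, where 36.8% of all passed (18% higher, 18.7% lower). They belong to 3 of 5 genes, where 48.5% of all genes had a passing probe set. All 3 AHR sets differed, by 0.91, 1.14 and 1.40 (adjusted p = 0.0001131, 1.06e-05 and 7.64e-07). The brighter ARNT sets differed by -2.04 on 11741380_s_at and -1.41 on 11757749_s_at (adjusted p = 7.06e-09 and 3.91e-07). Also, 2 dim sets passed at -0.48 on 11752225_a_at (adjusted p = 0.029168) and -0.35 on 11741381_a_at (adjusted p = 0.017981). The call of 11752225_a_at was lost without WiDr AZ628 replicate 1, vehicle replicate 2 or 3, control shRNA replicate 1 or 3 or IKKα shRNA replicate 1 or 2, each left out alone (adjusted p up to 0.086487), and that of 11741381_a_at without WiDr vehicle replicate 2 (0.057278). AHRR differed on 11729561_a_at by -2.88 (adjusted p = 1.50e-11), and TIPARP passed on neither probe set. For CYP1A1 the shRNA effect minus the AZ628 effect was -3.63 and -3.58, and for the responsive CYP1B1 sets -2.13 to -2.54, given with no test.

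Against vehicle, a control it shares with AZ628 in WiDr, IKKα shRNA had 13 passing probe sets, 11 higher and 2 lower, where 31.2% of all passed (16.1% higher, 15.1% lower). By gene, 5 of 7 had a passing probe set (44.1% of all genes). These counts include CYP1A1, on which the choice rested, so nothing is read from them. Without CYP1A1 and CYP1B1, 7 of 14 probe sets passed, 5 higher and 2 lower. AHR was higher by 0.57, 0.78 and 0.85 on its 3 sets, and TIPARP by 0.81 and 1.13. The CYP1A1 differences were 3.00 and 1.15, smaller than against control shRNA. AHRR did not pass on either probe set with vehicle as the control (-0.17 and -0.22).

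Other genes of the pathway were taken from a list of 39, of which 33 were measured, each through its brightest probe set. With AZ628 in WiDr 15 rose, 7 fell and 11 did not pass, where 22.8% of all genes rose and 20.5% fell. In HT29 9 rose, 7 fell and 17 did not pass (21.8% and 20.4% of all genes), and with IKKα shRNA 7 rose, 7 fell and 19 did not pass (14.9% and 18.1%). The median change of the 33 was 0.16, 0.09 and -0.01, beside -5e-04, 0.0048 and 0.0238 over all genes.

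The chaperones that hold the receptor in the cytoplasm fell with AZ628 in both lines on all 3 measured genes. Of all genes, 20.5% fell in WiDr and 20.4% in HT29. HSP90AA1 changed by -0.59 in WiDr and -0.56 in HT29 (adjusted p = 8.15e-07 and 1.95e-06), and HSP90AB1 by -0.36 and -0.65 (adjusted p = 0.00011484 and 1.27e-07). With IKKα shRNA HSP90AA1 rose by 0.29 (adjusted p = 0.0022834), and HSP90AB1 (-0.01) and PTGES3 (-0.02) did not pass.

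Among genes related to ARNT, BMAL1, a clock factor of the same family, rose with AZ628 by 0.69 in WiDr and 0.45 in HT29 and fell by 0.45 with IKKα shRNA (adjusted p = 1.73e-07, 3.25e-05 and 5.34e-05), the directions seen for ARNT. NPAS2, another clock factor, fell by 1.28 with IKKα shRNA (adjusted p = 6.06e-08), and EPAS1, a hypoxia factor, rose by 0.60 (adjusted p = 1.93e-07), although the other probe set of EPAS1 changed by 0.01. Of 7 genes in this list, 3 rose with AZ628 in WiDr and 2 in HT29, and none fell. Of all genes, 22.8% and 21.8% rose and 20.5% and 20.4% fell, so nothing is read from these counts. Of 4 coactivators measured, NCOA1 and CREBBP rose in both lines, NCOA1 by 1.23 and 0.78 (adjusted p = 6.26e-09 and 2.67e-06). With IKKα shRNA NCOA1 gave -0.25 (adjusted p = 0.060845), and none of the 4 passed.

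The further textbook targets of the receptor changed in both directions. ALDH3A1, an aldehyde dehydrogenase, rose by 1.23 in WiDr and 0.32 in HT29 with AZ628 and fell by 0.24 with IKKα shRNA (adjusted p = 3.71e-11, 0.00054726 and 0.0099968). NQO1, a quinone reductase, changed by 0.16 (adjusted p = 0.021174), 0.09 (0.19009) and -0.02 (0.8459). The other NQO1 probe set changed by 0.59 with AZ628 in WiDr, so the size of the rise there depends on the probe set. GSTA2, a glutathione transferase nearly identical to GSTA1 so that its probes may read both, rose by 2.25 in WiDr and 4.93 in HT29 and gave 0.11 with IKKα shRNA (adjusted p = 4.20e-10, 3.12e-14 and 0.62308). In the other direction, ABCG2, an efflux pump, changed by -2.84 and -2.72 with AZ628 (adjusted p = 3.61e-16 and 2.89e-15) and rose by 0.32 with IKKα shRNA, where another probe set gave -0.60. CYP2S1, a P450 of epithelia, fell in all 3, with changes of -1.05, -1.18 and -0.61 (adjusted p = 6.81e-09, 1.91e-09 and 1.28e-05). So of 6 targets measured, 3 rose and 2 fell in WiDr, where 22.8% and 20.5% of all genes did. In HT29 2 rose and 2 fell (21.8% and 20.4% of all genes), and with the shRNA 1 rose and 3 fell (14.9% and 18.1%). With so few genes nothing is read from these counts. The listed targets UGT1A1, UGT1A6 and SERPINB2 were not analysed.

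Enzymes of the kynurenine route, which makes tryptophan metabolites that can bind the receptor, changed one by one. TDO2, the first enzyme, rose by 0.58 with AZ628 in WiDr (adjusted p = 0.00031382), and in HT29 it gave 0.14 (adjusted p = 0.39121). AADAT, which turns kynurenine into kynurenic acid, changed by -1.53 and -1.08 (adjusted p = 2.11e-08 and 2.15e-06). KYNU, which cleaves kynurenine, rose by 0.94 with IKKα shRNA (adjusted p = 1.92e-07). IDO1 and IL4I1 passed in none of the 3 treatments.

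Of the genes that support P450 enzymes, HMOX1, which breaks down haem, had the largest changes, with rises of 2.18 in WiDr, 1.24 in HT29 and 2.76 with IKKα shRNA (adjusted p = 4.38e-13, 9.05e-10 and 6.38e-14). ALAS1, which makes haem, rose by 0.39 in WiDr and 0.58 with IKKα shRNA (adjusted p = 0.0021039 and 8.80e-05), and in HT29 it gave 0.09 (adjusted p = 0.5327). PPARA, a lipid-sensing receptor, rose by 1.12 and 0.72 with AZ628 and fell by 0.75 with IKKα shRNA (adjusted p = 1.41e-09, 5.39e-07 and 6.08e-07). Its other probe sets changed by up to 0.42 with the shRNA, so the direction there depends on the probe set. RXRA, a shared partner of nuclear receptors, changed by 0.58 and 0.25 with AZ628 and -0.30 with IKKα shRNA (adjusted p = 1.09e-06, 0.0069516 and 0.0019678). Its other probe set changed by 0.05 in WiDr, -0.24 in HT29 and 0.24 with the shRNA, so the direction in HT29 and with the shRNA depends on the probe set.

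**Figure D4:**
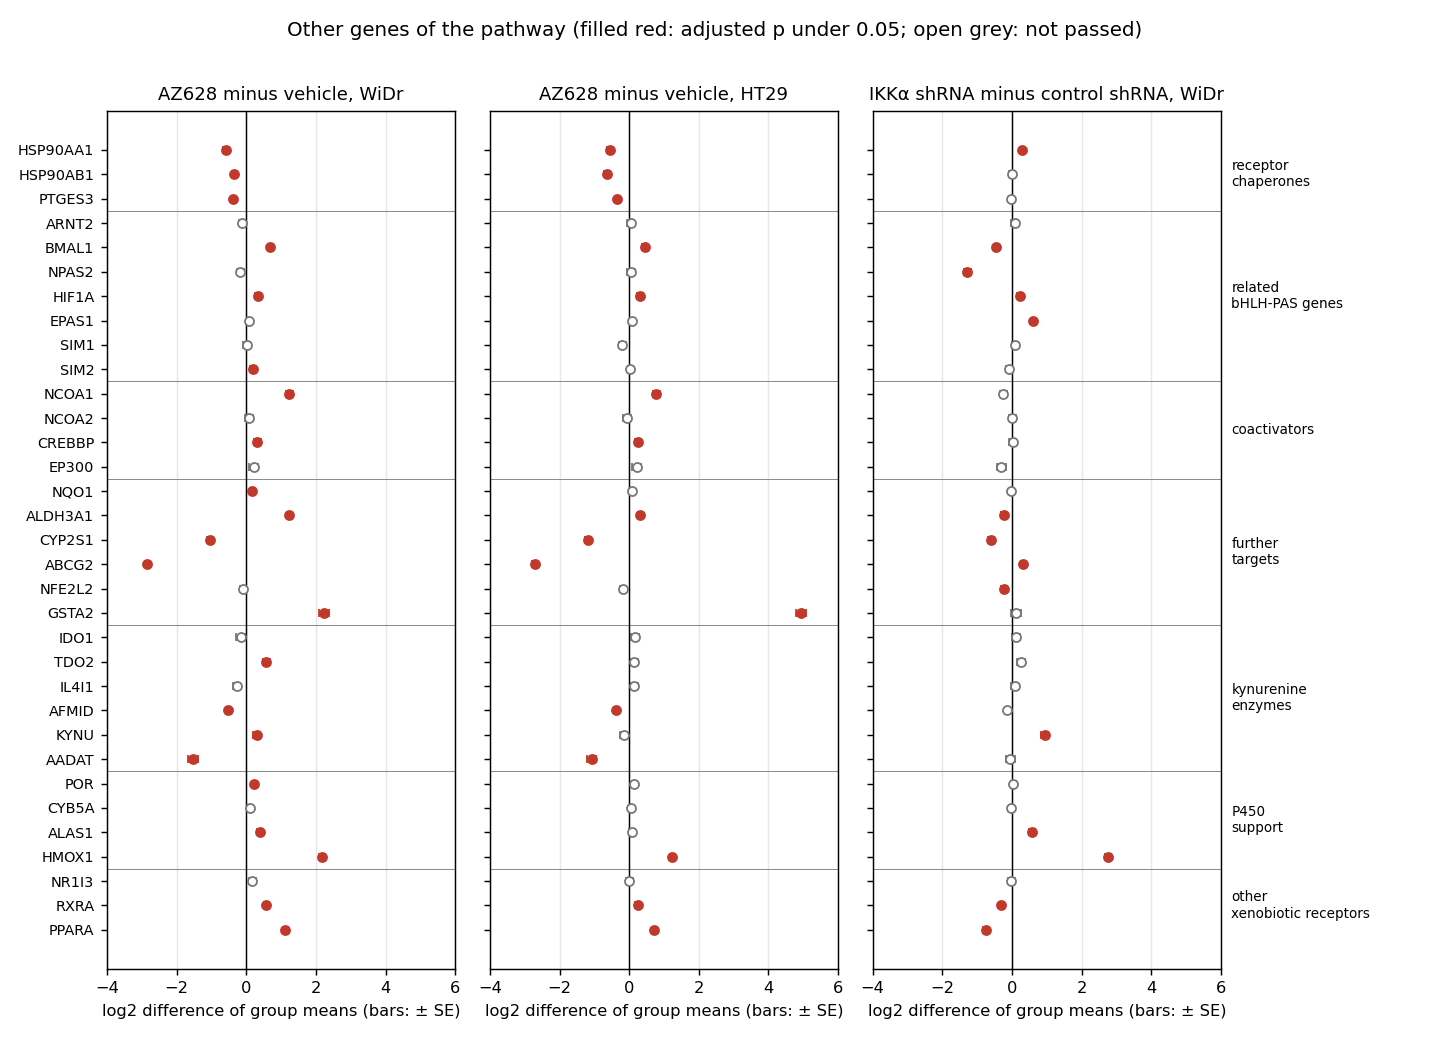
Change of the 33 other pathway genes (1 probe set each, log2 difference of group means, bars ± SE) in the 3 treatments, grouped by role; filled red points passed at an adjusted p under 0.05 and open grey points did not. The 3 chaperones are left of 0 in both AZ628 panels, GSTA2 and HMOX1 lie far to the right and ABCG2 far to the left with AZ628, and HMOX1 stands alone on the right with IKKα shRNA.

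The genes whose signal ran most like that of 3 members were found by Pearson's r over the 18 arrays among 4170 genes whose group means spanned at least 1 unit, as a description in which arrays of 1 group share their treatment. Nearest to CYP1A1 were BMF, a cell death gene of the BCL2 family (r 0.9895), GLCCI1 (0.9876), LAMB3, a laminin chain (0.9864), ZSWIM8 (0.9786) and SOS2, an activator of RAS (0.9777). BMF differed by 3.14 with AZ628 in WiDr, 3.08 in HT29 and 1.21 with IKKα shRNA. Nearest to CYP1B1 were LAMB3 (0.9858), USP54 (0.9848), PKIB (0.9826), IGSF3 (0.982) and AXIN2, a feedback gene of Wnt signalling (0.9783). LAMB3 was on both lists and differed by 1.95, 1.62 and 1.24. Nearest to AHR were S100A11 (0.9742), IRS1, an adaptor of the insulin receptor (0.9734), FUCA2 (0.9677), KLK6, a secreted protease (0.9633) and IFFO2 (0.9625). IRS1 differed by -1.07, -1.19 and 0.87, lower with AZ628 and higher with IKKα shRNA as AHR was.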

How the data were processed

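Signals were measured on 18 Affymetrix arrays, 6 groups of 3, from 100 ng of total RNA each. The authors deposited log2 signals. The submitters' processing notes list RMA, limma and R 3.0.2. RMA gives all arrays a common distribution, which hides any shift of most transcripts together. The design text has HT28 where the sample labels have HT29, and the labels were followed. The labelling protocol is for whole transcripts and the probe set names resemble those of 3′ arrays, a mismatch that was not resolved.

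Of 49395 probe sets, 102 controls were left out. Of the other 49293, the platform's probe table tied 44988 to 1 symbol, 1832 to several and 2473 to none. A model of 6 groups was fitted to every probe set over all 18 arrays with limma 3.58.1 in R 4.3.3 (12 residual and 5.02 prior degrees of freedom), with Benjamini-Hochberg adjustment over all probe sets within each of 9 comparisons. The p-values are two-sided. Arrays carry no depth, and their number limits the precision.

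The genes, the pathway lists and the markers were chosen with earlier results of these data known. All 21 probe sets are reported. Of each pathway list, the largest passing rise and fall of a treatment are named, with a few other members. Of the 39 listed genes, 6 were not analysed here. Figures used Python 3.11.15 and matplotlib 3.10.9. Alternatives are given at the end. A plain replicate number links the groups in the labels: over 21 pairs of same-numbered arrays the correlation of deviations was -0.2132 to 0.2219 and above 0.1 in 3, so the numbers were not used as pairs.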

Additional observations from a re-analysis of the deposited data

Results flagged for a closer look

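For AHR on 11751921_s_at the AZ628 effect differed between the lines by -0.55 (HT29 minus WiDr, SE 0.15, limma adjusted p = 0.044878), a larger fall in HT29. The changes were -0.76 in WiDr and -1.31 in HT29, with all AZ628 arrays below all vehicle arrays in each line. Of all probe sets, 47.3% (WiDr) and 45.5% (HT29) likewise had no overlap between AZ628 and vehicle arrays. The other AHR probe sets pointed the same way at -0.27 and -0.38 and did not pass, and the mean of the 3 passed at -0.40 (adjusted p = 0.031442). The call was lost with the replicate block (adjusted p = 0.065552) and in a fit of the compared groups alone (0.056656). It was also lost in 8 of the fits that left out 1 array (adjusted p up to 0.11964).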

How the results depend on the processing

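The number of the 7 genes with a passing probe set was 6 (AZ628 in WiDr), 6 (AZ628 in HT29), 5 (IKKα against control shRNA), 3 (control shRNA against vehicle), 5 (IKKα shRNA against vehicle), 3 (HT29 against WiDr with vehicle), 5 (with AZ628), 3 (line difference of the AZ628 effect) and 5 (IKKα shRNA effect minus AZ628 effect), counts that include the genes used in the choice. Leaving out 1 array at a time gave 6 to 7, 6 to 7, 5 to 6, 2 to 4, 5 to 6, 2 to 3, 3 to 5, 2 to 3 and 5 to 5 in the same order, where 3 for the lines with AZ628 came without HT29 AZ628 replicate 2. Without probe sets ending in _s_at, _x_at or _a_at only 11726536_at of CYP1A1 is left, so the counts were 1, 1, 1, 0, 1, 0, 1, 1 and 1. Leaving out only _s_at and _x_at, an alternative chosen after seeing the data, gave 3 for IKKα against control shRNA, 3 for IKKα shRNA against vehicle, 3 for the lines with AZ628 and 1 for the line difference. A 2-fold minimum gave 3, 1, 3, 0, 1 and 1 for IKKα against control shRNA, control shRNA against vehicle, IKKα shRNA against vehicle, the lines with vehicle, the lines with AZ628 and the line difference. The same minimum also removed AHR with AZ628 in WiDr and TIPARP with AZ628 in HT29. With 1 probe set per gene the lines with AZ628 gave 2. Other, smaller moves of the counts under these alternatives are not listed.

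Over the 21 probe sets and 9 comparisons, 10 other settings left 1293 of 1368 calls as they were, with 60 lost, 15 gained and none of the called changes reversed. Of the 60 lost calls, 51 came from the 2-fold minimum. Leaving out single arrays left 1320 of 1386, with 53 lost, 13 gained and none reversed. The replicate block changed 1 call of these, the AHR line difference (adjusted p = 0.065552), and moved the counts of all probe sets to 0.926 to 0.989 of their value. The cause of the other changes was not tested. Signals below the array median limit what can be seen for 11732107_a_at of CYP1A2, 3 ARNT sets and 11745721_s_at of CYP1B1.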
